A study of Homo sapiens with 12 samples.

Results

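This comparison set 2 libraries of a JQ1-resistant derivative of U87 against 2 libraries of parental U87, both kept for 24 h in DMSO, the solvent of the drugs. They were chosen by their titles, are 4 of the 12 libraries in the series, and were compared across all 19093 genes that could be tested. U87 is an established human glioblastoma cell line. The other 8 libraries came from the same lines after 24 h in 1000 nM JQ1 or 1000 nM dBET6, with 2 libraries for each line and drug, and share no library with the DMSO comparison. The sources used here do not give how the resistant line was derived, whether it is 1 clone, or whether it was kept in JQ1 beforehand. Nothing in the labels says that replicates were separate cultures, so p-values measure the spread between these libraries, which may be technical.

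BET proteins read acetylated histones and recruit P-TEFb, the kinase complex that releases paused RNA polymerase II into elongation. JQ1 fills their acetyl-lysine pocket, and dBET6 joins a similar ligand to one for cereblon, a ubiquitin ligase receptor, so that BET proteins are degraded. Cells that survive BET inhibition have been described with altered Wnt, receptor kinase and chromatin programmes, and glioblastoma lines have unstable genomes.

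The 4 libraries held 33617240 to 40388589 estimated counts. Levels are CPM, counts scaled to library size by TMM, which are not corrected for length. Differences are resistant minus parental on the log2 scale with the standard error of the fit, from edgeR's quasi-likelihood test with Benjamini-Hochberg adjustment, and n = 2 libraries per group throughout. A gene is called higher or lower at an adjusted p under 0.05. Replicates of a group differed by more than sampling of counts gives (chi-square divided by its degrees of freedom 12.86 in the parental and 4.559 in the resistant group). Marker lists were read in FPKM, a value per length and depth. The 10 mesenchymal glioma markers summed to 6940 to 7080 FPKM in the parental and 7110 to 7200 in the resistant libraries, a sum that VIM leads (2980 and 3320 FPKM in the parental and 2910 and 2910 in the resistant libraries), and 3 of them were higher and 5 lower, CD44 standing at 493 and 508 FPKM in the parental and 250 and 242 in the resistant libraries. Astrocyte markers summed to 46.6 to 48.9 FPKM in the parental and 66.3 to 70.2 in the resistant libraries, with 3 of 7 tested higher and 1 lower. GJA1 led that sum, and the glutamate transporter SLC1A3 stood at 9.93 and 9.2 FPKM in the parental and 15.6 and 16.7 in the resistant libraries. AQP4, ALDH1L1, SLC1A2 and SOX9 were under 1 FPKM. Of these, SOX9 went from 0.447 and 0.528 FPKM in the parental to 0.0685 and 0.081 in the resistant libraries, and ALDH1L1 from 0.301 and 0.128 to 0.0207 and 0.0381. SLC1A2 went the other way, from 0.0366 and 0.074 to 0.666 and 0.825. Microglia and macrophage markers summed to 217 to 243 FPKM in the parental and 184 to 191 in the resistant libraries, carried by the lysosomal protein CD68 (233 and 206 FPKM in the parental and 166 and 172 in the resistant libraries), with AIF1, TYROBP and C1QA listed at 0 in all 4 libraries, and CSF1R higher (6.24 and 7.74 FPKM in the parental and 13.4 and 13.5 in the resistant libraries). Epithelial markers summed to 3.27 to 7.91 FPKM in the parental and 1.27 to 2.36 in the resistant libraries, with KRT8 at 2.35 and 6.3 FPKM in the parental and 0.528 and 1.52 in the resistant libraries and KRT5 at 0, and each of the 9 lymphocyte markers was under 1 FPKM. Fibroblast and pericyte markers summed to 111 to 119 FPKM in the parental and 96.3 to 96.8 in the resistant libraries. The part of these markers in the results was not tested. CDKN2A and CDKN2B, tumour suppressors known to be deleted in U87, had 0 counts in all 4 libraries.

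Of 19093 genes tested, 7357 (38.5%) differed between the lines, 3314 higher in the resistant line (17.4%) and 4043 lower (21.2%). Large falls were more numerous than large gains: 1031 genes were at least 2-fold higher and 1206 at least 2-fold lower, while 51 were at least 16-fold higher and 194 at least 16-fold lower. Among protein-coding genes 2741 of 14470 were higher and 3639 lower. In a separate fit of the 8853 genes with a mean of at least 10 CPM, 2343 were higher and 2277 lower, both larger shares than over all genes. For lists of mostly well-expressed genes, the shares of all genes used below are thus a low yardstick. When mitochondrially encoded mRNAs set the scale, 981 genes were higher and 4073 lower, and the median over all genes was -0.23 in place of 0.0044. With total counts as the scale, 3993 were higher and 3457 lower (median 0.074). The balance of directions thus rests on the scaling, and differences are relative to the bulk of genes.

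The deepest falls among well-expressed protein-coding genes were in a receptor, a matrix regulator and adhesion genes. IL13RA2 (ENSG00000123496), a decoy receptor for interleukin-13 common in glioblastoma, went from 80.5 and 71.0 to 0.06 and 0.024 CPM (-10.64 ± 0.77, adjusted p = 9.38e-18). In JQ1 it stood at 30.1 and 37.5 CPM in the parental and 0.054 and 0 in the resistant libraries, and in dBET6 at 111 and 126 CPM in the parental and 0 and 0 in the resistant libraries. Parental and resistant libraries were far apart in every condition. PCDH7 (ENSG00000169851), a protocadherin of cell contacts, went from 33.0 and 34.0 to 0.12 and 0.17 CPM (-7.85 ± 0.35, adjusted p = 3.88e-21). TIMP3 (ENSG00000100234), a matrix-bound inhibitor of metalloproteinases, went from 46.0 and 43.6 to 0.20 and 0.19 CPM (-7.81 ± 0.29, adjusted p = 3.50e-22). For both genes the resistant libraries lay near 0 and the groups did not overlap, by the rule that chose them. IGFBP7, a secreted binding protein, went from 38.0 and 39.2 to 0.16 and 0.31 CPM (-7.37 ± 0.75), and UBE2K, a ubiquitin-conjugating enzyme, from 38.6 and 39.4 to 0.26 and 0.29 (-7.14 ± 0.27). PCDH7, IGFBP7 and UBE2K lie on chromosome 4, where most genes were lower in the resistant line.

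The other falls by the same rule were LDOC1 (-5.57 ± 0.22), PNLIPRP3 (-4.48 ± 0.16), the nucleotide hydrolase DNPH1 (-4.32 ± 0.16), the hyaluronan synthase HAS1 (-4.18 ± 0.19), the ephrin receptor EPHB2 (57.8 and 61.5 to 3.44 and 3.75 CPM, -4.05 ± 0.13), TNFAIP2, a gene induced by tumour necrosis factor (-3.93 ± 0.14), and PTPRN, a secretory granule protein (143 and 152 to 11.4 and 12.5 CPM, -3.63 ± 0.11). The 12 genes with the deepest falls were all called lower in the resistant line in JQ1 and in dBET6 too.

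Among the gains, PTPRU (ENSG00000060656), a receptor tyrosine phosphatase, went from 1.11 and 1.69 to 30 and 29.9 CPM (4.42 ± 0.42, adjusted p = 1.06e-04). RCN3 (ENSG00000142552), a calcium-binding protein of the endoplasmic reticulum, went from 5.28 and 5.41 to 38.7 and 41.6 CPM (2.91 ± 0.10, adjusted p = 3.17e-18). CHI3L1 (ENSG00000133048), a secreted glycoprotein that marks mesenchymal glioblastoma, went from 210 and 219.9 to 1180 and 1267 CPM (2.51 ± 0.09, adjusted p = 3.03e-17). Both resistant libraries lay above both parental ones in each, by the rule that chose them. IL1B (ENSG00000125538), an inflammatory cytokine, went from 28.4 and 27.0 to 140.2 and 143 CPM (2.35 ± 0.09, adjusted p = 6.62e-17), and LIFR, a receptor subunit for leukaemia inhibitory factor, from 21 and 19.4 to 125 and 115 (2.57 ± 0.09). The remaining gains were KIAA1462 (2.83 ± 0.15), MTSS1 (2.81 ± 0.16), the transporter SLC16A6 (2.75 ± 0.11), the sodium leak channel NALCN (2.75 ± 0.14), PLXDC1 (2.33 ± 0.13), IGFBP4, which binds insulin-like growth factors (2.28 ± 0.10), and PALM2-AKAP2 (2.34 ± 0.49), a readthrough gene that shares exons with its neighbours and is uncertain. The 12 were called higher in JQ1 as well, and all but KIAA1462, IL1B and PALM2-AKAP2 in dBET6.

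**Figure D1:**
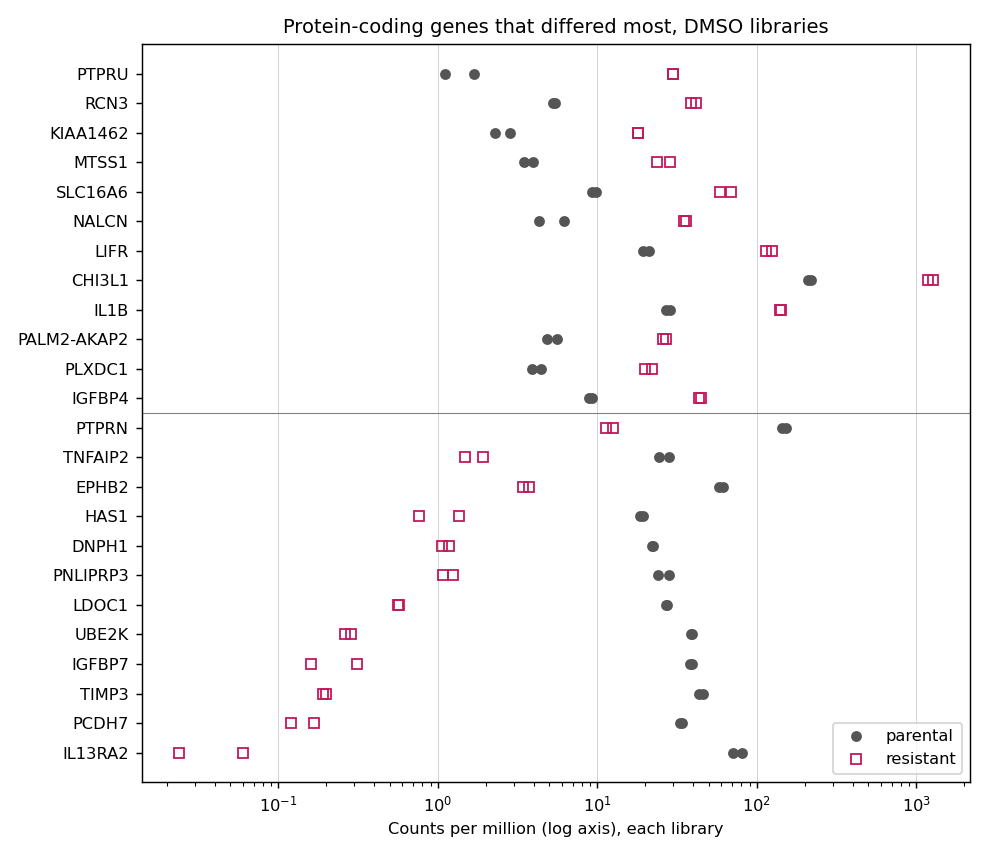
CPM in each of the 4 DMSO libraries (log axis) for the 12 protein-coding genes with the greatest gain, above the line, and the 12 with the greatest fall, below it; filled circles are parental and open squares resistant libraries. The lines are separated for each gene, by the rule that chose them, most widely for IL13RA2, which went from 80.5 and 71.0 to 0.06 and 0.024.

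The promoters below belong to the 2 genes with the largest change in each direction that have an entry in the RefSeq table (GRCh38.p14), and are shown because these genes moved furthest. IL13RA2 is named only. Each is the 250 bases before the annotated start, 5′ to 3′ on the gene's strand, and capitals mark motif matches.
PCDH7, chr4:30720119-30720368, + strand: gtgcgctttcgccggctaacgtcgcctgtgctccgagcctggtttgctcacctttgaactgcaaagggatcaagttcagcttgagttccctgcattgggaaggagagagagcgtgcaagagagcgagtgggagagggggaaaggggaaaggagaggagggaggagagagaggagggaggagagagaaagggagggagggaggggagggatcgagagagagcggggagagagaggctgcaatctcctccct
TIMP3, chr22:32801455-32801704, + strand: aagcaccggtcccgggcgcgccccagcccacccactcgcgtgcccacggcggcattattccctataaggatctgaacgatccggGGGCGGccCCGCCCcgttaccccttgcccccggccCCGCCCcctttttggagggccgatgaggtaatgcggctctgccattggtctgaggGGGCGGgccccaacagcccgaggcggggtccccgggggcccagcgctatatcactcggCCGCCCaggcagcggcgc
PTPRU, chr1:29236272-29236521, + strand: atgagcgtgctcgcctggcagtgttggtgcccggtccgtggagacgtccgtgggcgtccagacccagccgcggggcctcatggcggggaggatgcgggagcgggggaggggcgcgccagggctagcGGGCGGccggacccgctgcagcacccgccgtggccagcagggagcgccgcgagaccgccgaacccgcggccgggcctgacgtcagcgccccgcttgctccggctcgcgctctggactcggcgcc
RCN3, chr19:49527753-49528002, + strand: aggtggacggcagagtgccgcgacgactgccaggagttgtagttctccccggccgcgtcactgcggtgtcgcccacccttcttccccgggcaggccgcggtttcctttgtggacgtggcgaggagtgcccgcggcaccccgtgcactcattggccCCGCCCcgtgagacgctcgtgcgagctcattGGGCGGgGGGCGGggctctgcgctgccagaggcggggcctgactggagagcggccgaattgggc
The motifs searched on both strands were TATAAA for the TATA box, TGANTCA for AP-1, GGGCGG for the GC box, CACGTG for the E-box, and an NF-kB motif. The GC box matched 5 times in TIMP3, 3 in RCN3, 1 in PTPRU and 0 in PCDH7, and the other motifs 0 times, so none overlapped. Of 27305 promoters of this length in the table, 42.3% held a GC box, 11.1% a TATA box, 6.6% an AP-1 motif, 6.49% an E-box and 0.546% the NF-kB motif. GC content was 72.4% in TIMP3, 77.6% in PTPRU, 71.2% in RCN3 and 59.6% in PCDH7, against a median of 58.0%. A match describes letters only, and no binding or methylation was analysed here.

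Some genes fell to near silence. With at most 3 counts in all in 1 line and at least 100 in each library of the other, 12 genes were near-silent in the resistant DMSO libraries and 1 in the parental ones. C4orf48, on chromosome 4, had 458 and 601 against 0 and 0 counts (parental against resistant), at least 385-fold lower against a floor of 3 counts over the group. ZC4H2, a zinc finger protein, had 448 and 377 against 0 and 0 (at least 299.7-fold lower), LYPD1 161 and 145 against 0 and 0 (at least 111-fold lower) and the cancer-testis antigen MAGEC1 148 and 133 against 0 and 0 (at least 102-fold lower). For genes with 1 to 3 counts left, the ratio of parental to resistant is given with its 95% interval, which covers counting error only. FEZ1, an axonal transport adaptor, had 179 and 162 against 1 and 0 (372, 66.3 to 14720). The thyroid hormone receptor THRB had 144 and 158 against 2 and 1 (109.7, 37.2 to 535), the homeobox gene HOXD10 139 and 147 against 3 and 0 (104, 35.2 to 507) and the synaptic adhesion gene NLGN1 138 and 143 against 1 and 1 (153, 42 to 1271). IDUA had 419 and 421 against 2 and 0 and SLC26A1 110 and 103 against 1 and 1, but these chromosome 4 genes overlap and cannot be told apart without strand. MAGEC1, HOXD10, NLGN1, SLC26A1 and TRPC4 are named in addition to the 6 with the most counts, after their values were seen. MAGEC1 stayed at 0 and 0 counts in the resistant JQ1 libraries, against 109 and 98 in the parental ones, while FEZ1 had 8 and 8 there. TRPC4, with 107 and 113 against 0 and 0 counts in DMSO, did not keep this difference in JQ1. It had 0 and 0 parental and 4 and 0 resistant counts there and was not called (adjusted p = 0.0773). The gene silent in the parental DMSO libraries, ISY1-RAB43, is a readthrough with 0 and 0 parental and 129 and 266 resistant counts. It was not silent in the parental line under drug, with 186 and 196 counts in JQ1 and 232 and 142 in dBET6, and was not called there (adjusted p = 0.975 and 0.265).

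Long non-coding genes also moved both ways. The imprinted RNA MEG3 went from 1.78 and 2.27 to 0 and 0.072 CPM and LINC00890 from 2.12 and 1.96 to 0.02 and 0.048, and RP11-550P17.5 fell by 5.85 ± 0.71. LINC01021, on the short arm of chromosome 5, went from 5.19 and 4.79 to 33.8 and 31.1 CPM (2.70 ± 0.13), and AC074389.9 rose by 2.57 ± 0.37. Of 20 imprinted genes 8 (40.0%) were higher and 6 (30.0%) lower, where 17.4% and 21.2% of all genes were. NDN, expressed from the paternal allele, went from 0.46 and 0.59 to 8.54 and 8.56 CPM (4.02 ± 0.23), and MEST rose by 1.17 ± 0.11.

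The genes that differed clustered on certain chromosomes. Arms were assigned to 14457 protein-coding genes, of which 18.9% were higher and 25.2% lower, with a median difference of -0.021. On chromosome 4, 379 of 517 genes (73.3%) were lower and 13 higher, with a median of -0.74. The resistant libraries had medians of -0.64 and -0.70 against the parental mean. On chromosome 21, 99 of 132 genes (75%) were lower and 1 higher, with a median of -0.82 and resistant libraries at -0.74 and -0.77. The short arm of chromosome 5 went the other way: 89 of 108 genes (82.4%) were higher and 5 lower, with a median of 0.91 and resistant libraries at 0.92 and 0.85. The long arm of chromosome 5 had a median of 0.021. In these regions the replicates of the resistant line lay close together and away from both parental libraries.

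The drug-treated libraries, which share no library with these, gave similar medians. Chromosome 4 stood at -0.70 in JQ1 and -0.83 in dBET6, chromosome 21 at -0.76 and -0.82, and the short arm of chromosome 5 at 1.03 and 0.82. Chromosomes 4 and 21 held 478 of the 3639 lower protein-coding genes (13.1%) and 4.49% of those tested. The short arm of 5 held 3.25% of the higher genes and 0.747% of those tested. Of 18038 genes outside these 3 regions 3176 were higher and 3520 lower. DNA was not analysed here.

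The most abundant called genes of these regions differed in size. On chromosome 21, the cathepsin inhibitor CSTB went from 557 and 589 to 209.6 and 217 CPM (-1.43 ± 0.08), and the amyloid precursor APP, pyridoxal kinase PDXK and the collagen chain COL6A2 fell by 0.85 ± 0.10, 0.74 ± 0.08 and 0.32 ± 0.10. On chromosome 4, ANXA5, a lipid-binding protein, went from 566 and 503 to 243 and 233 CPM (-1.17 ± 0.09), the histone variant H2AFZ from 411 and 384 to 142 and 132 (-1.54 ± 0.09), and WDR1, MRFAP1, HNRNPD and UCHL1 fell by 1.0 ± 0.09, 1.0 ± 0.08, 0.99 ± 0.09 and 0.90 ± 0.08. The ribosomal protein genes RPS3A and RPL9, also on chromosome 4, fell by less, 0.68 ± 0.10 and 0.61 ± 0.09. On the short arm of 5, TRIO, an exchange factor for small GTPases, went from 292 and 277 to 698 and 697 CPM (1.29 ± 0.08), and RPL37, the chaperonin subunit CCT5 and BASP1 rose by 1.09 ± 0.10, 0.77 ± 0.09 and 0.35 ± 0.08. Some genes went against their region and are named after their values were seen: ANXA10 (0.42 and 0.12 to 6.76 and 7.96 CPM, 4.74 ± 0.35) and the receptor KDR (0.52 ± 0.14) were higher on chromosome 4, the RNA editing enzyme ADARB1 (0.85 ± 0.17) was higher on 21, and the interleukin-7 receptor gene IL7R (3.92 and 3.42 to 0.72 and 0.60 CPM, -2.47 ± 0.28) was lower on the short arm of 5. Under drug, ADARB1 (adjusted p = 0.126 in JQ1 and 0.512 in dBET6) and IL7R (0.71 and 0.388) were not called. KDR was called higher in JQ1 (adjusted p = 0.0167) but not in dBET6 (0.344), and ANXA10 was called higher in both.

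Median shifts over other whole chromosomes were smaller. On chromosome 19, 397 of 1084 genes were higher and 102 lower (median 0.30, but 0.055 when mitochondrially encoded mRNAs set the scale), with EEF2 (0.29 ± 0.09), CALR (0.32 ± 0.09) and TPM4 (0.49 ± 0.08) among its abundant genes. On chromosome 13, 103 of 236 were higher and 24 lower, and on chromosome 22, 136 of 338 were lower and 31 higher. A stretch of 27 genes on the long arm of 18, from ANKRD29 to ZNF396, had a median of 0.76. It was picked because its window medians reached 0.4, so the size of its median follows in part from that choice.

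**Figure D2:**
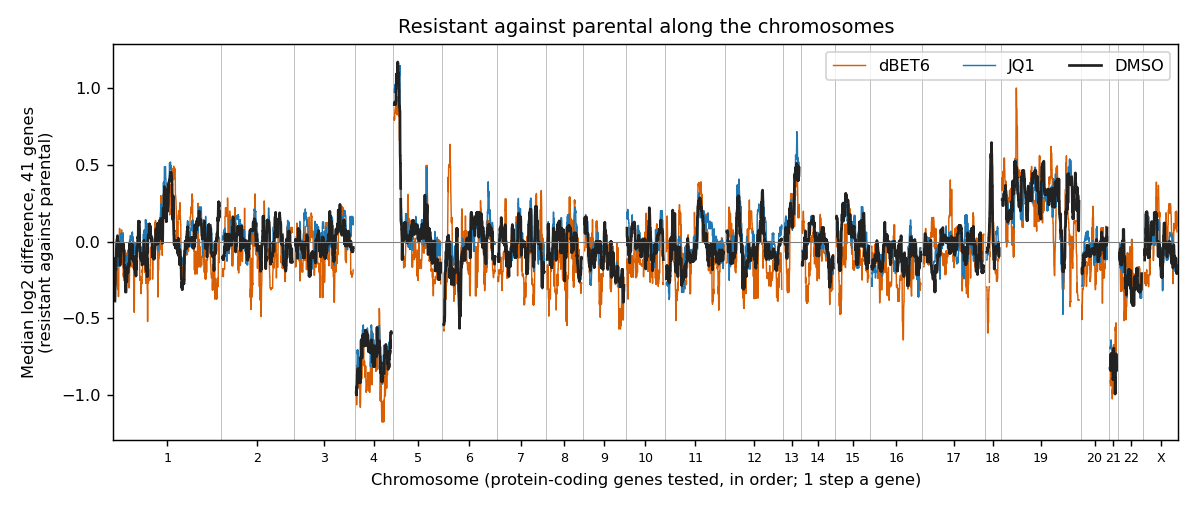
Median log2 difference (resistant against parental) over 41 neighbouring protein-coding genes, along the chromosomes in gene order, in DMSO (black), JQ1 (blue) and dBET6 (orange). Windows on chromosomes 4 and 21 lie below 0 in all 3 conditions, down to -1.0 around NELFA in DMSO, and those on the short arm of 5 reach 1.17 around PRLR.

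Among BET genes, BRD2 (-0.14 ± 0.08, adjusted p = 0.19) and BRD3 (0.077 ± 0.09, adjusted p = 0.518) did not pass the test, nor did the cereblon gene CRBN (0.15 ± 0.10, adjusted p = 0.278). HEXIM1 (ENSG00000186834), which holds P-TEFb inactive, went from 29.6 and 37.6 to 47.0 and 51.0 CPM (0.55 ± 0.10, adjusted p = 5.23e-05). MYC (ENSG00000136997), a target of BET inhibitors in many tumours, went from 68.7 and 70.0 to 55.7 and 52.9 CPM (-0.35 ± 0.09, adjusted p = 0.0016). HEXIM1 was thus higher and MYC lower in both resistant libraries. The list of BET and P-TEFb factors had 9 of 25 higher (36.0%) and 6 lower (24.0%), against 17.4% and 21.2% of all genes. Its median was 0.077 against 0.0044 over all genes, and -0.17 when mitochondrially encoded mRNAs set the scale. In the fit of genes with a mean of at least 10 CPM, 10 of its 24 tested members were higher and 6 lower, where 2343 and 2277 of 8853 genes were. The elongation factors NELFA (-0.84 ± 0.10) and AFF1 (-0.70 ± 0.09) lie on chromosome 4, and 3 members were lower outside the 3 regions.

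The MYC network had 5 of 12 higher (41.7%) and 3 lower (25%), with MXD1 (1.12 ± 0.12) and MGA (0.91 ± 0.10), which compete with MYC for MAX, higher and MAX (-0.36 ± 0.08) lower. The cereblon ligase and NEDD8 genes had 2 of 18 higher (11.1%) and 2 lower (11.1%), among them CUL4A (0.48 ± 0.08) and, on chromosome 4, UBE2D3 (-1.14 ± 0.09). The drug efflux and metabolism genes had 6 of 34 higher (17.6%) and 7 lower (20.6%), with UGT8 (-1.16 ± 0.10) and AKR1B1 (-0.85 ± 0.09) lower. The chromatin regulators had 11 of 50 higher (22%) and 9 lower (18%), with the deacetylase HDAC9 (-1.42 ± 0.11) and the Polycomb methyltransferase EZH2 (-0.58 ± 0.09) lower. Shares of these last 2 lists were close to the 17.4% and 21.2% of all genes, and those of the cereblon list were lower. Counts moved by over 1.5 times without 1 DMSO library, those of MYC network genes called higher from 5 to 3 without parental replicate 1, and those of chromatin regulators called higher from 11 to 5 without resistant replicate 1 and to 7 without parental replicate 2 or resistant replicate 2. Also moved were those of chromatin regulators called lower from 9 to 5 without resistant replicate 2.

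Growth factor lists held single large changes. Of 29 receptor tyrosine kinases 7 (24.1%) were higher and 11 (37.9%) lower, against 17.4% and 21.2% of all genes, with EPHA2 (32.2 and 29.6 to 6.84 and 7.03 CPM, -2.16 ± 0.12) lower beside EPHB2, and EPHB4 (1.35 ± 0.12) higher. AXL went from 414 and 414 to 292 and 278 CPM (-0.54 ± 0.09), and EGFR (0.086 ± 0.09, adjusted p = 0.486) did not pass. Of 29 growth factors 7 (24.1%) were higher and 13 (44.8%) lower (median -0.13). Outside the shifted chromosome regions described above, 6 of 22 growth factors were higher and 9 lower (median -0.0028). In the fit of genes with a mean of at least 10 CPM, 6 of 16 were higher and 5 lower (median 0.146). The larger share of lower growth factors thus rests in part on members in those regions and on members with low counts. HGF, the ligand of MET, went from 29.1 and 27.6 to 107 and 105 CPM (1.90 ± 0.09), and PTN, a heparin-binding growth factor, fell by 1.31 ± 0.10. GDNF, a ligand that signals through RET, went from 9.25 and 8.81 to 37.7 and 34.5 CPM (2.0 ± 0.11) on the short arm of 5, where its antisense gene GDNF-AS1 (2.35 ± 0.22) cannot be told apart from it without strand. Of 20 genes that ERK signalling induces or that restrain it 7 (35.0%) were higher and 5 (25%) lower. The phosphatase DUSP6 went from 56.1 and 59.6 to 194 and 195 CPM (1.75 ± 0.09), EGR1, SPRY4 and SPRY2 rose by 1.48 ± 0.10, 0.98 ± 0.09 and 0.74 ± 0.08, and ETV4 fell by 0.81 ± 0.10. Of 28 Wnt genes 6 (21.4%) were higher and 9 (32.1%) lower, with the ligand WNT7B (-1.01 ± 0.09) and RNF43, which removes Wnt receptors (-5.04 ± 0.33), lower. Of 35 TGF-beta and BMP genes 7 (20.0%) were higher and 6 (17.1%) lower. The Wnt and TGF-beta shares were not far from those of all genes and are no result about these lists.

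Antigen presentation genes were lower. Of 18 tested genes of MHC class I and peptide loading 14 (77.8%) were lower and 1 higher, where 21.2% of all genes were lower and 17.4% higher, with a median of -0.69 (-0.65 in JQ1 and -0.39 in dBET6). HLA-B, a class I heavy chain, went from 64.2 and 66.6 to 17.4 and 19.8 CPM (-1.82 ± 0.09). Class I genes resemble each other, so the split of reads between them is uncertain. The transporter TAP1 and the immunoproteasome subunit PSMB8 fell by 1.0 ± 0.10 and 1.12 ± 0.10. PSMB8 lies on the short arm of chromosome 6. The window of neighbouring protein-coding genes around it had a median of -0.564 in DMSO, -0.408 in JQ1 and -0.419 in dBET6. The whole arm had a DMSO median of -0.137. Calls of list members that lie in that window may not be independent of each other. Whether the list was lower apart from this stretch was not tested. Of 37 interferon-stimulated genes 3 (8.11%) were higher and 14 (37.8%) lower (median -0.20), with IFITM3 (-2.50 ± 0.12), OAS1 (-2.61 ± 0.27) and IFI44 (-1.69 ± 0.14) lower. Of 16 NF-kB genes 2 (12.5%) were higher and 7 (43.8%) lower, with the feedback inhibitors TNFAIP3 (-1.35 ± 0.11) and TNIP1 (-0.87 ± 0.09) lower and RELA (-0.14 ± 0.09, adjusted p = 0.234) not called. Leaving out 1 DMSO library moved counts by over 1.5 times, those of NF-kB genes called higher from 2 to 1 without parental replicate 1 or either resistant replicate, and those of MHC class I genes called higher from 1 to 0 without resistant replicate 2.

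Cytokine genes were called in both directions. Of 28 interleukins, colony-stimulating factors and receptors 7 (25%) were higher and 13 (46.4%) lower, against 17.4% and 21.2% of all genes (median -0.40). In the fit of genes with a mean of at least 10 CPM, 4 of 12 were higher and 5 lower (median 0.152). In JQ1 10 members of the list were higher and 5 lower (median -0.078), and in dBET6 8 and 4 (median 0.034). Beside the gain of IL1B, its natural antagonist IL1RN went from 23.5 and 22.4 to 6.22 and 6.33 CPM (-1.87 ± 0.12), and the receptor TNFRSF1B fell by 1.19 ± 0.09. Of 9 chemokines and receptors 2 (22.2%) were higher and 5 (55.6%) lower. IL8 went from 20.6 and 22.7 to 2.08 and 1.46 CPM (-3.59 ± 0.16), CCL2 and CCR1 fell by 3.35 ± 0.33 and 1.40 ± 0.13, and CXCL5 rose by 1.99 ± 0.35. IL8 and CXCL5 lie on chromosome 4, and outside the 3 regions 3 of 5 were lower. Of 25 prostaglandin and kynurenine genes 13 (52.0%) were higher and 6 (24.0%) lower. The aryl hydrocarbon receptor AHR went from 48.9 and 53.6 to 122 and 116 CPM (1.22 ± 0.08), its repressor AHRR, on the short arm of 5, and the phospholipase PLA2G4A rose by 1.34 ± 0.09 and 1.33 ± 0.11, and the prostaglandin synthases PTGES and PTGIS fell by 2.27 ± 0.08 and 4.61 ± 0.41. Counts moved by over 1.5 times without 1 DMSO library, those of chemokine genes called higher from 2 to 1 without parental replicate 1 or resistant replicate 2.

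Among matrix genes, of 24 collagen chains 3 (12.5%) were higher and 9 (37.5%) lower, where 17.4% and 21.2% of all genes were. COL5A1 went from 56.4 and 68.9 to 5.22 and 5.69 CPM (-3.52 ± 0.11), and COL1A1 and COL12A1 fell by 2.56 ± 0.15 and 2.14 ± 0.14. Of 38 matrix glycoproteins and lysyl oxidases 9 (23.7%) were higher and 18 (47.4%) lower, with the collagen cross-linking enzyme LOX (99.5 and 105 to 20.9 and 22.4 CPM, -2.24 ± 0.08), TGFBI (-1.55 ± 0.09) and, on chromosome 4, osteopontin (SPP1, -2.06 ± 0.09) lower and the laminin chain LAMA2 (2.51 ± 0.14) higher. Of 27 matrix proteases and inhibitors 6 (22.2%) were higher and 15 (55.6%) lower (median -0.239). In JQ1 9 were higher and 9 lower (median 0.0135), and in dBET6 10 and 10 (median 0.0534). Beside TIMP3, the protease MMP3 went from 138 and 120 to 13.3 and 11.2 CPM (-3.39 ± 0.10), and TIMP2 and, on chromosome 21, ADAMTS1 fell by 1.21 ± 0.08 and 1.74 ± 0.08.

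Adhesion and lineage lists are read against the 17.4% higher and 21.2% lower of all genes. Of 18 integrins 5 (27.8%) were higher and 5 (27.8%) lower, ITGA2 (1.61 ± 0.09) and ITGB3 (0.69 ± 0.09) among the higher and ITGA3 (1886 and 2164 to 1062 and 1046 CPM, -0.94 ± 0.09) among the lower. Of 25 cadherins and junction genes 5 (20.0%) were higher and 10 (40.0%) lower, and outside the 3 regions 4 of 17 were higher and 4 lower. N-cadherin (CDH2) went from 38.4 and 38.0 to 86.6 and 81.2 CPM (1.14 ± 0.09), and FAT4, on chromosome 4, fell by 5.94 ± 0.39. Of 25 mesenchymal factors 7 (28.0%) were higher and 7 (28.0%) lower, with ZEB1 (0.91 ± 0.09) higher, CD44 (-0.65 ± 0.08) and FOSL1 (-0.69 ± 0.09) lower and VIM (-0.10 ± 0.09, adjusted p = 0.431) not called. Of 26 stem cell factors 4 (15.4%) were higher and 11 (42.3%) lower, with NOTCH3 (19.9 and 21.1 to 2.74 and 3.04 CPM, -2.83 ± 0.14) and ID3 (-1.55 ± 0.09) lower. Of 23 YAP/TEAD targets 2 (8.7%) were higher and 11 (47.8%) lower (median -0.36), with ARHGEF17 (-1.60 ± 0.14), CRIM1 (-0.97 ± 0.08) and CTGF (-1.23 ± 0.11) lower. In JQ1 6 of these targets were higher and 6 lower (median -0.046), and in dBET6 6 and 9 (median -0.101). Of 26 HOX genes 2 (7.69%) were higher and 9 (34.6%) lower, with HOXD11 (-4.34 ± 0.36) and HOXC8 (-3.47 ± 0.44) lower. Of 29 axon guidance genes 8 (27.6%) were higher and 9 (31.0%) lower. Shares of integrins, mesenchymal factors and axon guidance genes were not far from those of all genes and are no result about these lists. Leaving out 1 DMSO library moved counts by over 1.5 times, those of cadherins and junction genes called higher from 5 to 3 without parental replicate 1 or either resistant replicate, and those of axon guidance genes called higher from 8 to 5 without either resistant replicate. Likewise moved were those of stem cell factors called higher from 4 to 2 without parental replicate 2 or resistant replicate 1, and those of YAP/TEAD targets called higher from 2 to 0 without parental replicate 2 and to 1 without resistant replicate 1. Also moved were those of HOX genes called higher from 2 to 0 without parental replicate 1 or resistant replicate 1 and to 1 without parental replicate 2 or resistant replicate 2.

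Most mitotic genes were lower. Of 40 genes of G2/M and mitosis 31 (77.5%) were lower, where 21.2% of all genes were, with a median of -0.40 (-0.47 in JQ1 and -0.64 in dBET6). With a fold threshold of 1.5, 8 were called lower, where 1216 of 19093 genes were. The mitotic kinases PLK1 and AURKA went from 216 and 221 to 114 and 118 CPM (-0.92 ± 0.10) and from 137 and 128 to 71.0 and 70.5 (-0.90 ± 0.09), and CDC20 fell by 0.81 ± 0.09. Cyclin A2 (CCNA2, -1.17 ± 0.09) and the checkpoint gene MAD2L1 (-1.06 ± 0.10) lie on chromosome 4. Outside the 3 regions 27 of 36 members were lower, where 3520 of 18038 genes were. The proliferation marker MKI67 (-0.12 ± 0.09, adjusted p = 0.296) did not pass. Of 37 DNA replication genes 17 (45.9%) were lower and 1 was higher, TYMS and TK1 falling by 0.64 ± 0.08 and 0.64 ± 0.10. The median of this list was -0.193 in DMSO. In JQ1 it was 0.018 (5 higher, 7 lower) and in dBET6 -0.515 (2 higher, 26 lower). With a fold threshold of 1.5, 0 replication genes were called lower, and limma without a filter called 5, where it called 2211 of 40576 genes lower. Of 18 cyclins, CDK inhibitors and RB family genes 3 (16.7%) were higher and 8 (44.4%) lower. In JQ1 5 of these were higher and 3 lower (median 0.006), and in dBET6 2 and 9 (median -0.518). CCND3 went from 87.6 and 92.1 to 41 and 41.9 CPM (-1.12 ± 0.10) and CCND1 from 661 and 687 to 556 and 518 (-0.33 ± 0.08), E2F1, CDK2 and CDK6 fell by 0.48 ± 0.09, 0.49 ± 0.08 and 0.48 ± 0.11, and CDKN1A (-0.033 ± 0.09, adjusted p = 0.809) was not called. Counts moved by over 1.5 times without 1 DMSO library, those of replication genes called lower from 17 to 9 without resistant replicate 2 and to 11 without parental replicate 1, and those of cyclin and CDK inhibitor genes called higher from 3 to 1 without parental replicate 2 or resistant replicate 1. Also moved were those of cyclin and CDK inhibitor genes called lower from 8 to 5 without resistant replicate 2. In bulk RNA, fewer dividing cells and less of these RNAs per cell cannot be told apart.

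Among metabolic lists, glycolysis had the most lower genes. Of 37 hypoxia and glycolysis genes 6 (16.2%) were higher and 23 (62.2%) lower, against 17.4% and 21.2% of all genes, with a median of -0.41 (-0.56 in JQ1 and 0.031 in dBET6). The lactate dehydrogenase LDHA went from 1262 and 1045 to 645 and 658 CPM (-0.82 ± 0.10), and PDK1, which holds pyruvate back from mitochondria, the aldolase ALDOC and the enolase ENO2 fell by 1.28 ± 0.11, 1.12 ± 0.11 and 0.60 ± 0.08. Of 13 mitochondrially encoded mRNAs 5 were higher, with a median of 0.32 (0.075 when they set the scale), and they took 1.65% and 1.46% of counts in the parental and 1.76% and 2.13% in the resistant libraries. Of 44 nuclear-encoded respiratory genes 4 (9.09%) were higher and 9 (20.5%) lower, at or under the shares of all genes. SDHA (0.86 ± 0.09) and NDUFS6 (0.70 ± 0.09) lie on the short arm of 5 and ATP5O (-0.90 ± 0.09) on 21, and 2 members were higher outside the 3 regions. Leaving out 1 DMSO library moved counts by over 1.5 times, those of hypoxia and glycolysis genes called higher from 6 to 3 without parental replicate 1 or either resistant replicate, and those of mitochondrial mRNAs called higher from 5 to 3 without parental replicate 2 or resistant replicate 2.

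Stress pathways held large single changes. Of 29 NRF2 and oxidative stress genes 7 (24.1%) were higher and 10 (34.5%) lower, where 17.4% and 21.2% of all genes were. Haem oxygenase HMOX1 went from 174 and 218 to 825 and 822 CPM (2.07 ± 0.10), GCLM, of glutathione synthesis, rose by 1.54 ± 0.11, and the cystine transporter SLC7A11, on chromosome 4, fell by 2.55 ± 0.20. Of 31 ATF4 and unfolded protein genes 8 (25.8%) were higher and 10 (32.3%) lower, with the amino acid transporter SLC7A5 (-1.83 ± 0.12), TRIB3 (-3.08 ± 0.22) and DDIT3 (-1.18 ± 0.11) lower. Of 36 lipid synthesis genes 9 (25%) were higher and 9 (25%) lower, with HMGCS1 (1.35 ± 0.11, short arm of 5) and INSIG1 (0.95 ± 0.08) higher and LSS (-1.41 ± 0.09, chromosome 21) lower. Of 17 genes of the growth factor binding list 5 (29.4%) were higher and 5 (29.4%) lower, STC2 falling by 1.37 ± 0.08. Counts moved by over 1.5 times without 1 DMSO library, those of lipid synthesis genes called lower from 9 to 4 without either resistant replicate, and those of growth factor binding genes called higher from 5 to 3 without parental replicate 1.

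The remaining lists are given by their counts, beside 17.4% higher and 21.2% lower of all genes. Of 46 autophagy and lysosome genes 8 (17.4%) were higher and 19 (41.3%) lower. With a fold threshold of 1.5, 2 of them were lower, where 1216 of 19093 genes were. Homologous recombination and Fanconi genes had 5 of 35 higher (14.3%) and 10 lower (28.6%), p53 and its targets 10 of 32 higher (31.2%) and 8 lower (25%), and the BCL2 family and death receptors 8 of 33 higher (24.2%) and 9 lower (27.3%). Cytosolic ribosomal proteins had 9 of 49 higher (18.4%) and 5 lower (10.2%), histone genes 4 of 23 higher (17.4%) and 6 lower (26.1%) and metallothioneins 4 of 11 higher (36.4%) and 1 lower (9.09%). Ion channels and transmitter receptors had 7 of 34 higher (20.6%) and 10 lower (29.4%), and 3 of 5 cancer-testis antigens were lower. BCL2L1 (-0.021 ± 0.10, adjusted p = 0.896) was not called, and SERPINI1, which encodes neuroserpin, fell by 1.52 ± 0.30. Leaving out 1 DMSO library moved counts by over 1.5 times, those of autophagy genes called higher from 8 to 1 without parental replicate 2 and to 2 without either resistant replicate and to 5 without parental replicate 1, and those of recombination genes called higher from 5 to 1 without parental replicate 2 and to 3 without resistant replicate 1. Likewise moved were those of recombination genes called lower from 10 to 4 without resistant replicate 2 and to 5 without resistant replicate 1 and to 6 without parental replicate 1, and those of p53 genes called lower from 8 to 5 without resistant replicate 1. Also moved were those of BCL2 family genes called lower from 9 to 4 without resistant replicate 1, and those of ribosomal protein genes called higher from 9 to 5 without parental replicate 1 or resistant replicate 2. Likewise moved were those of ribosomal protein genes called lower from 5 to 2 without resistant replicate 1 and to 3 without parental replicate 1 or resistant replicate 2, and those of ion channel genes called lower from 10 to 6 without resistant replicate 1.

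**Figure D3:**
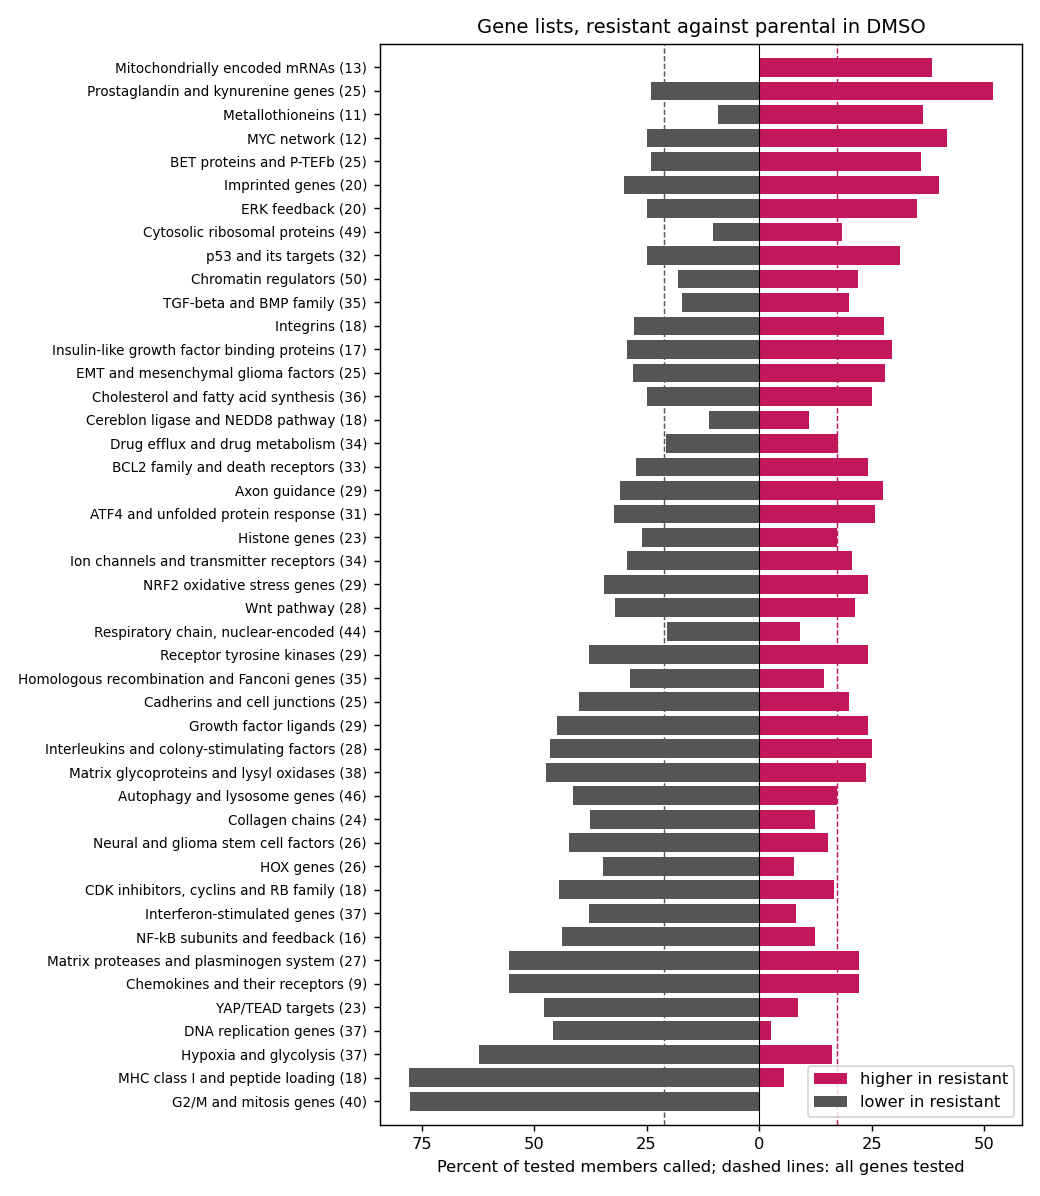
Percent of tested members called higher (right) or lower (left) in the resistant line in DMSO, for the 45 lists with at least 9 tested members (number in brackets), with dashed lines at the 17.4% and 21.2% of all genes. MHC class I and peptide loading (77.8%) and G2/M and mitosis (77.5%) reach furthest to the left, and prostaglandin and kynurenine genes (52.0%) furthest to the right.

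The line difference was then read in the drug-treated libraries. Of the 3314 genes higher in DMSO, 1883 (56.8%) were called higher in JQ1, where 16.8% of all genes were, and 39 were called lower. Of the 4043 lower, 2548 (63.0%) were called lower in JQ1, where 19% of all genes were, and 70 higher. In dBET6, 47.7% of the higher genes were called higher (19.7% of all genes) and 56.7% of the lower genes lower (24.3% of all genes). Outside the 3 regions, 55.7% of the higher and 59.4% of the lower genes were called the same way in JQ1. In all 3 conditions 1108 genes were called higher and 1641 lower. Across 19093 genes, the DMSO difference had a Pearson r of 0.621 with that in JQ1 and 0.465 with that in dBET6, a description across genes, which are not independent.

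**Figure D4:**
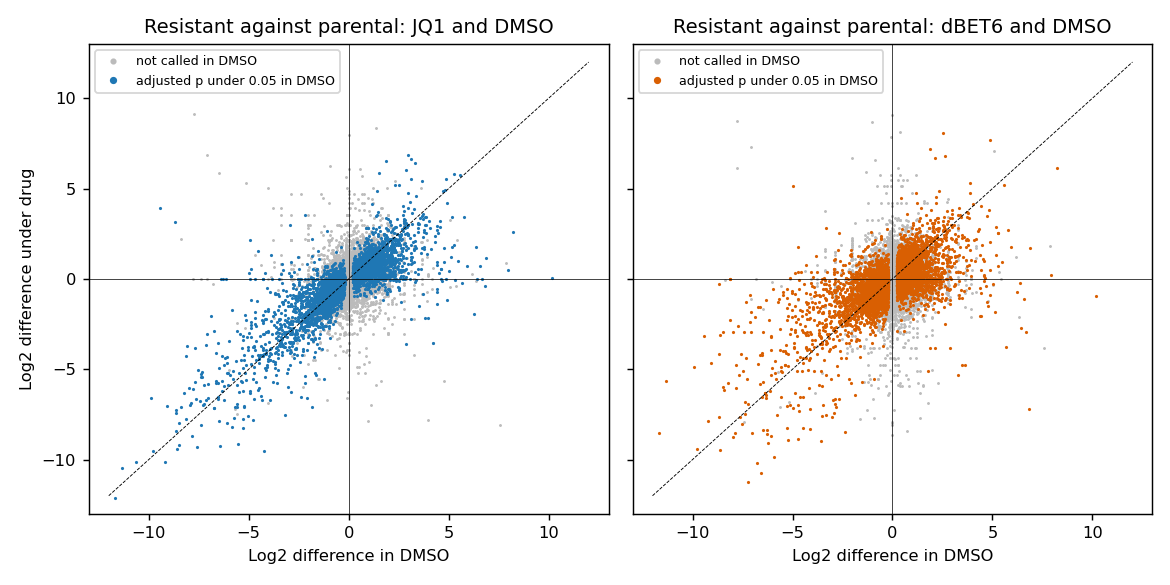
Log2 difference of resistant against parental cells under drug (vertical axis) against that in DMSO (horizontal axis), 1 point a gene, in JQ1 on the left and dBET6 on the right, with genes called in DMSO coloured and the dashed line marking equal differences. Points lie closer to the line in JQ1 (Pearson r 0.621) than in dBET6 (0.465).

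The change of the line difference with treatment was tested as an interaction, which 1241 genes (6.5%) passed for JQ1 (3.62% with a higher and 2.88% with a lower line difference in the drug) and 5333 (27.9%) for dBET6. The count for JQ1 was 548 without resistant DMSO replicate 2, 610 without resistant JQ1 replicate 2, 645 without resistant DMSO replicate 1, 714 without resistant JQ1 replicate 1, 739 without parental DMSO replicate 1 and 805 without parental JQ1 replicate 1. MYC, lower in the resistant line in DMSO, was higher in JQ1 (99.5 and 96.4 CPM in the parental and 115 and 115 in the resistant libraries, 0.23) and in dBET6 (65.3 and 55.8 CPM in the parental and 220.5 and 228 in the resistant libraries, 1.89). HEXIM1, higher in DMSO, stood at 191 and 196 CPM in the parental and 207 and 201 in the resistant libraries in JQ1 (0.074, adjusted p = 0.581) and was lower in dBET6 (-0.54). CCND1, lower in DMSO, was higher in JQ1 (635 and 648 CPM in the parental and 1098 and 1069 in the resistant libraries, 0.76). IL1B, higher in DMSO, stood in dBET6 at 2.47 and 2.17 CPM in the parental and 2.13 and 2.99 in the resistant libraries (0.15, adjusted p = 0.625). UBE2K stayed lower in dBET6 (8.23 and 7.25 CPM in the parental and 1.58 and 1.43 in the resistant libraries), by less than in DMSO. Of the 24 genes with the largest gains and falls, 7 passed the interaction test for JQ1 and 11 that for dBET6, 5 of them both, and 11 passed neither, among them IL13RA2, PTPRU, RCN3 and CHI3L1. The fall of TIMP3 was less deep in JQ1 and in dBET6 (by 1.70 and 1.79, adjusted p = 0.00339 and 0.00946) and that of PCDH7 in dBET6 (by 3.08, adjusted p = 9.65e-04). The gain of LIFR was smaller in JQ1 (-0.68, adjusted p = 0.00141). For TIMP3 and PCDH7 the resistant libraries stayed near 0 under drug. TIMP3 stood there at 0.43 and 0.42 CPM in JQ1 (29.1 and 30.2 parental) and PCDH7 at 0.27 and 0.19 in dBET6 (7.04 and 5.54 parental). The 24 genes were chosen by their DMSO difference, which the interaction subtracts, so a smaller difference under drug is favoured by that choice.

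**Figure D5:**
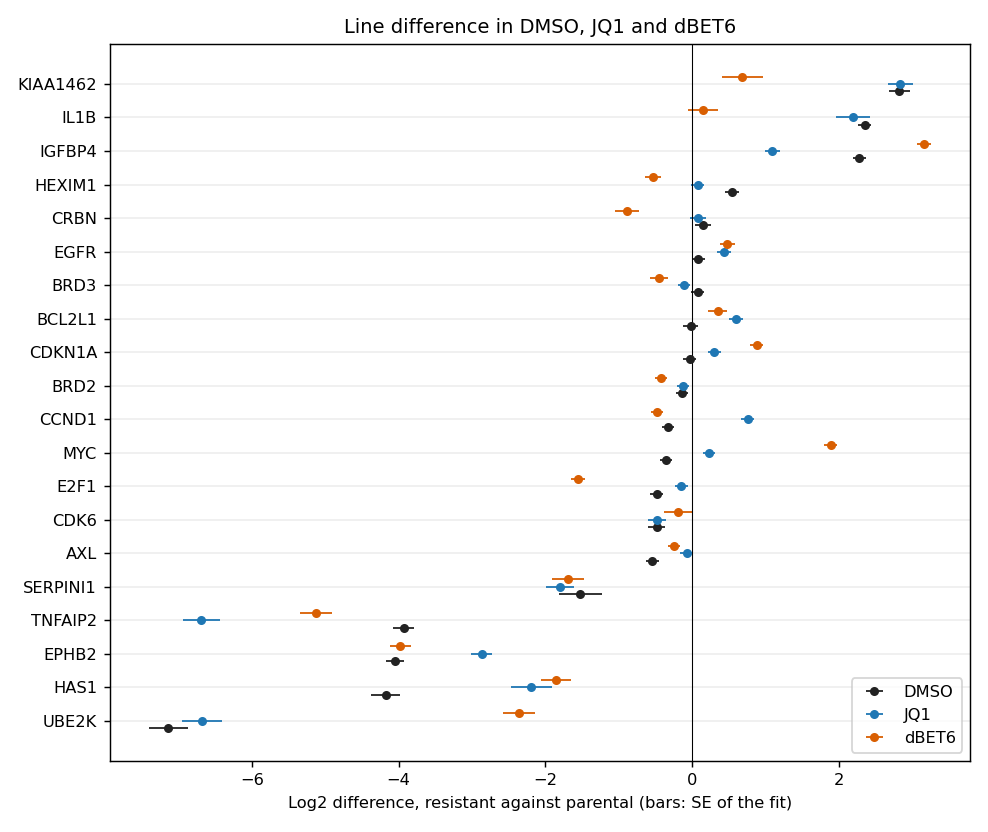
Log2 difference of resistant against parental cells with its standard error (points and bars) in DMSO, JQ1 and dBET6, for genes followed in every condition and the most changed genes with the smallest interaction p. MYC lies below 0 in DMSO (-0.35) and above it in dBET6 (1.89), and HEXIM1 lies above 0 in DMSO (0.55) and below it in dBET6 (-0.54).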

How the data were processed

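RNA sequencing of 12 U87 libraries was deposited as transcript tables with estimated counts and TPM, per the file headers, and as a gene table of FPKM. The submitters' processing notes name kallisto, DESeq2 and the build hg19; no version is stated there. Deposited estimated counts were summed per gene by transcript identifiers of GENCODE 29 and rounded; 92.6% of transcripts were paired, holding 95.0% to 96.3% of counts. The deposited TPM served for length-scaled counts and the deposited FPKM for markers and limma. Genes were filtered with filterByExpr, scaled by TMM and tested in edgeR 4.0.16 (R 4.3.3) over all 12 libraries, with 6 residual degrees of freedom. DMSO libraries held 33617240 to 40388589 counts; intervals cover counting error only. limma 3.58.1 and DESeq2 1.42.0, other scalings and filters, each library left out and a replicate block were alternatives. On simulated data for the DMSO comparison (18575 genes, 200 changed), 35.8%, 70.1% and 89.4% of 1.5-, 2- and 4-fold changes were recovered, with 9.09% false calls. Far fewer genes were changed there than the 38.5% called in the data, so these shares do not measure recovery or false calls in the data.

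Named genes were the 12 largest gains and 12 largest falls among called protein-coding genes that averaged 10 CPM or more and whose libraries did not overlap between lines, near-silent genes, up to 5 called members per list by p with 1 that missed, genes followed in every condition, the most abundant called genes of the most shifted regions, 4 long non-coding genes each way, and 4 genes per interaction. The comparison and the lists were chosen with earlier results of these data known. Chromosome arms use GRCh38 and were added after seeing the data. XIST and Y-linked genes were left out, and some genes are not reported here.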

Additional observations from a re-analysis of the deposited data

Results flagged for a closer look

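Among the most changed genes and the genes followed in every condition, some had a difference between the lines that itself differed between treatments (edgeR interaction test, Benjamini-Hochberg adjusted p under 0.05 over all genes). Each value is the log2 line difference under the drug minus that in DMSO, with n = 2 libraries per group. In JQ1 the line difference was larger or less negative than in DMSO for HAS1 (1.98), EPHB2 (1.18), TIMP3 (1.7), AXL (0.464), BCL2L1 (0.619), MYC (0.584) and CCND1 (1.08). In JQ1 the line difference was smaller or more negative than in DMSO for MTSS1 (-0.841), TNFAIP2 (-2.76), IGFBP4 (-1.19), LIFR (-0.684) and HEXIM1 (-0.471). In dBET6 the line difference was larger or less negative than in DMSO for DNPH1 (1.21), PLXDC1 (0.508), UBE2K (4.78), HAS1 (2.33), IGFBP4 (0.883), PCDH7 (3.08), TIMP3 (1.79), MYC (2.24), CDKN1A (0.914) and EGFR (0.393). In dBET6 the line difference was smaller or more negative than in DMSO for MTSS1 (-1.83), TNFAIP2 (-1.2), KIAA1462 (-2.14), IL1B (-2.21), BRD3 (-0.533), CRBN (-1.03), E2F1 (-1.08) and HEXIM1 (-1.08). The 2 tests share the DMSO libraries, so a gene listed for both drugs is not seen in separate evidence. The most changed genes were chosen by their DMSO difference, which each value subtracts, so a smaller difference under drug is favoured for them. Why these differences vary with treatment was not tested.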

How the results depend on the processing

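For the 7357 genes that differed in DMSO, a minimum mean of 10 CPM left 4620 (2277 lower), a fold threshold of 1.5 1974 (758 higher, 1216 lower), and limma on log2(FPKM + pseudocount) called 4017 (1529 and 2488) with a pseudocount of 1, 3814 (1468 and 2346) with 0.1 and 3447 (1236 and 2211) without a filter. Mitochondrial mRNA scaling left 981 higher genes and length-scaled TPM counts 2106. Leaving out 1 library gave 5200 to 6014 changed genes in DMSO and 548 to 1267 for the JQ1 interaction. The chromosome 4 median was -0.666 with total counts, -0.975 with mitochondrial scaling, and -0.689, -0.78 and -0.616 in the 3 limma fits. For chromosome 21 these were -0.751, -1.06, and -0.876 and -0.686 in the last 2 limma fits, with -0.76 at 10 CPM, -0.841 with length-scaled counts and -0.837 to -0.794 without 1 library. For the short arm of 5 they were 0.982, 0.669, 0.992 at 10 CPM, 0.847 and 0.778 by limma, and 0.899 to 0.97 without 1 library. For chromosome 19 they were 0.373, 0.0554, 0.223 and 0.158 by limma, and 0.228 to 0.331 without 1 library. The cause of these moves was not tested. Without chromosomes 4 and 21 and the short arm of 5, an alternative chosen after seeing the data, members lower were 3 in the BET list, 3 (and 0 higher) among chemokines, 4 among cadherins and 1 in the cereblon list, and 2 respiratory genes were higher. With the replicate number as a block, 7151 genes differed in DMSO, and the numbers did not pair the samples (correlation of replicate deviations -0.05808 to 0.0609 over pairs of groups). Of 196 genes taken by the naming rules or added 167 were called, 133 of them under every alternative that tested them, and 0 changed direction while called. Not every gene was tested in every alternative: THRB, HOXD10 and MAGEC1, for instance, were tested in 15 of 18.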
